A study of Mus musculus with 30 samples.

Results

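Mitosis genes encode the machinery that condenses, captures and separates the chromosomes and then divides the cell. A set of 40 of them was followed in mouse embryonic stem cells and in their differentiating progeny, chosen by symbol from the textbook roles of their products. A probe set counted for a member only where the annotation gave it that symbol and no other, and each gene was followed on its brightest such probe set, by the mean of all 30 arrays. Of the 40 members, 39 had such a probe set and all 39 passed the filter on low values, among 13250 genes tested. Ccnb1, which encodes the cyclin B1 partner of Cdk1, had no probe set annotated to it alone and was not analysed here.

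The cells were the mouse R1 embryonic stem cell (ESC) line, kept undifferentiated with LIF, the cytokine that sustains self-renewal, and embryoid bodies (EB), the aggregates these cells form, at day 5 without LIF. All cultures of both states were exposed to 150 ug/ml cycloheximide for 15 min, which holds ribosomes on mRNAs, before a cytoplasmic lysate was made. Sucrose-gradient fractions of the lysate were combined into pools 1 to 4. Pools and unfractionated (total) RNA were hybridised to expression arrays from 2.5 ug of RNA each, with 3 cultures per state. Which end of the gradient is pool 1 is not stated in the labels, so only pool numbers are used here, and equal RNA input means that pool values compare array signals and not amounts of mRNA in the gradient. Day-5 EB hold several cell types, and in such bulk RNA fewer cells of a type and less RNA per cell cannot be told apart.

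Entry into mitosis is driven by Cdk1 bound to its cyclins. The spindle checkpoint, built at kinetochores, holds the anaphase-promoting complex inactive until every chromosome is attached. The complex then marks securin and the cyclins for destruction, separase cuts cohesin, and the central spindle and a contractile ring divide the cell. Many of these genes are transcribed late in the cell cycle under the control of CHR elements, with the core TTTGAA, and CCAAT boxes bound by NF-Y. Embryonic stem cells divide rapidly with short gap phases.

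Values are log2(signal + 32). A value "relative to all genes" was taken after the arrays compared were given one common distribution, and a gene is called where limma's adjusted p was under 0.05 (Benjamini-Hochberg over 13250 genes). The deposited scale keeps the level of each array, and there mean linear signal in total RNA was 158 ± 3.49 in ESC and 352 ± 40.02 in EB (SD, n = 3). The log2 ratio of 3' to 5' probe sets for Actb, a measure of RNA integrity and labelling, was also unequal: 3.10 ± 0.287 in total RNA of ESC and 2.26 ± 0.224 in that of EB (SD, n = 3). Among state markers in total RNA, 1 of 10 pluripotency genes was called higher in EB (Nanog) and 2 lower (Klf4 and Fgf4), and 3 of 6 primitive endoderm genes were called higher (Gata6, Sox17 and Ttr). Of all genes, 6.55% were called higher and 6.09% lower. Counts for mesoderm and neural markers are not given here. Of 7 fibroblast markers, which would mark feeder cells, 2 passed the filter and neither was called. In EB pool 2, replicate 3 stood apart, with the lowest correlation between replicates of any group (0.914 for its least similar pair).

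The promoters of the members held the cell cycle motifs TTTGAA and CCAAT in a larger share than promoters at large. RefSeq promoters (GRCm38.p6, 250 bases before to 50 after the start) were at hand for 34 of the 40 members. TTTGAA was present on either strand in 24 of the 34 (70.6%), against 18.1% of 27025 promoters. CCAAT was present in 25 (73.5%), against 37.9% of all promoters. Both motifs were present in 21 (61.8%), against 7.12%. The E2F-type motifs TTTGGCGC and TTTCGCGC were each present in 1 member promoter (2.94%), that of Ncapd2 and that of Cdk1, against 0.537% and 0.318% of all promoters. These shares describe letters in a window and do not show binding.

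The last 150 bases before the start are shown for 5 members on which the results below turn: Cdk1, Bub1 and Top2a, called higher in total RNA of EB, Cdc20, among the highest in pool 4, and Anln, the only member called lower in total RNA. Capitals mark TTTGAA and CCAAT or their reverse complements (TTCAAA and ATTGG), and the motifs do not overlap one another.
Cdk1: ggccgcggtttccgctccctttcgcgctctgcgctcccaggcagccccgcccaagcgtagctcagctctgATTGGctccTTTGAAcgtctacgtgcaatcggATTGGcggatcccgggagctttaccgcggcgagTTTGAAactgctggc
Cdc20: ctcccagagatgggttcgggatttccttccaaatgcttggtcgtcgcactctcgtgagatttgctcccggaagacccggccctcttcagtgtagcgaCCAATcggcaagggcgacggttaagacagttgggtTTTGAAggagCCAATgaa
Bub1: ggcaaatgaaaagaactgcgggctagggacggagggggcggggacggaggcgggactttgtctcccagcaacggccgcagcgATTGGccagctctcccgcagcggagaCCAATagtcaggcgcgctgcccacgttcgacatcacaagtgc
Top2a: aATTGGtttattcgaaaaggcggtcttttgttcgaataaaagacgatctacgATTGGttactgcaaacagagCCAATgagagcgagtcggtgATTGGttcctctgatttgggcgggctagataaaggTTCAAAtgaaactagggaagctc
Anln: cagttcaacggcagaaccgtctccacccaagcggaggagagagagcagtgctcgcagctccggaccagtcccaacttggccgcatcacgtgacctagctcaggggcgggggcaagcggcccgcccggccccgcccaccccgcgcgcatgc
The windows lie at chr10:69352913-69353062 on the minus strand for Cdk1, chr4:118437344-118437493 on the minus strand for Cdc20, chr2:127831860-127832009 on the minus strand for Bub1, chr11:99024190-99024339 on the minus strand for Top2a and chr9:22389207-22389356 on the minus strand for Anln. In Cdk1 and Cdc20 a TTTGAA lies close to the start, its first base at -15 and -18, and CCAAT boxes lie at -80 and -48 in Cdk1 and at -53 and -8 in Cdc20. Top2a has CCAAT boxes at -149, -98, -78 and -58 and a TTTGAA, on the opposite strand, at -23. The Bub1 window has CCAAT boxes at -68 and -42 and no TTTGAA. The Anln window has neither motif, and its TTTGAA matches lie past the start, at 21 and 28. Some members called higher in total RNA and not shown also had no TTTGAA wholly before the start. It lies at 32 in Aurka and 2 in Kif23, and that of Prc1, at -5, reaches past the start. These promoters do have CCAAT boxes before the start. Whether the motifs go with the direction of a difference was not tested.

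Total RNA was compared to ask how the abundance of these mRNAs differed between EB and ESC. Relative to all genes, 11 of 39 members were called higher in EB, 1 was called lower and 27 were not called, where 6.55% of all genes were called higher and 6.09% lower. The median member difference was 0.17 (log2), against -0.004 over all genes, and 28 of 39 members lay above 0. All 3 EB cultures lay above all 3 ESC cultures for 17 members and below them for 5, where 18.6% and 17.5% of all genes did so. The called members came from 7 of the 8 role groups, and none of the 5 centromere and kinetochore genes was called. The plot of differences by role group shows this spread.

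**Figure D1:**
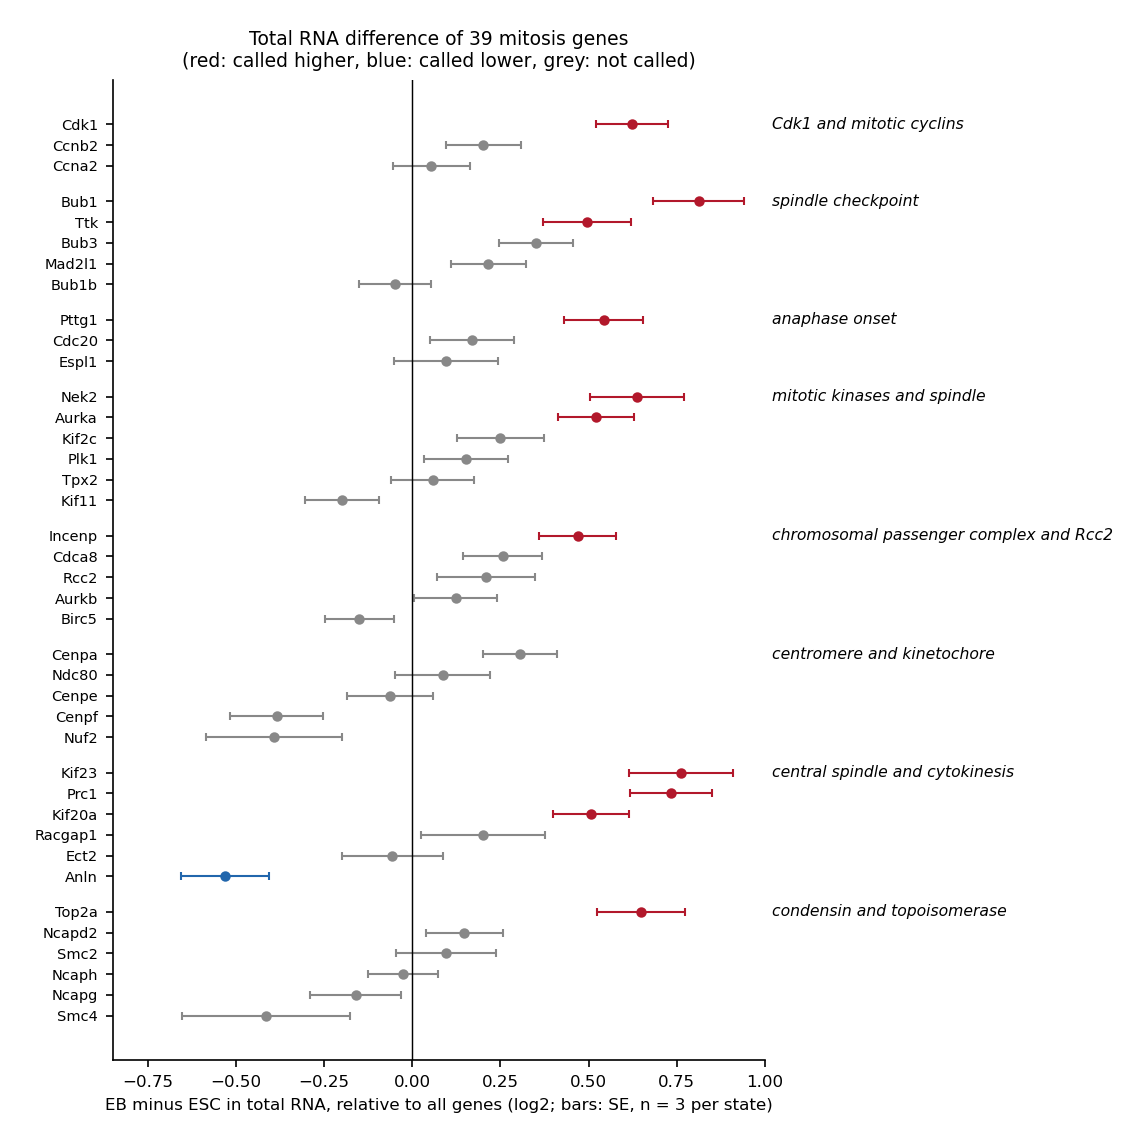
Difference between EB and ESC in total RNA for each of 39 mitosis genes, relative to all genes (log2, horizontal axis), ordered by role; points are limma estimates, bars the SE with 3 cultures per state. Called rises run from 0.47 (Incenp) to 0.81 (Bub1), and Anln, at -0.53, is the only called fall.

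Among the genes of Cdk1 and the mitotic cyclins, the kinase itself was called. Cdk1, the catalytic subunit that starts mitosis, read 10.68, 10.59 and 10.70 in the ESC cultures and 11.27, 11.24 and 11.33 in the EB cultures. The groups did not overlap, and the EB values were tightly grouped. Cdk1 rose by 0.62 ± 0.10 (log2, SE, limma adjusted p = 0.0124). Its partners Ccna2 (cyclin A2, which acts from S phase into early mitosis) and Ccnb2 (cyclin B2) differed by 0.05 and 0.20 and were not called.

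The checkpoint genes parted into called and uncalled members. Bub1, a kinase that recruits other checkpoint proteins to kinetochores, had the largest rise in the set. It read 9.43, 9.31 and 9.35 in ESC and 10.07, 10.39 and 10.07 in EB, with no overlap, a rise of 0.81 ± 0.13 (log2, SE, limma adjusted p = 0.0114). Ttk (Mps1), the kinase that starts checkpoint signalling, rose by 0.50 (limma adjusted p = 0.0458). Bub1b (BubR1), part of the inhibitor of the anaphase-promoting complex, read 10.03, 9.95 and 10.08 in ESC and 9.98, 9.92 and 10.02 in EB, which overlapped (difference -0.05 ± 0.10, not called). Mad2l1, which binds and restrains Cdc20, read 10.68, 10.71 and 10.62 in ESC and 10.78, 10.96 and 10.92 in EB. Its groups did not overlap, but its difference of 0.22 ± 0.11 was not called (limma adjusted p = 0.223). Bub3, the adaptor of both Bub kinases, differed by 0.35 and was not called (limma adjusted p = 0.0701).

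At anaphase onset 1 of 3 genes was called. Pttg1 (securin), which inhibits separase until it is destroyed, read 11.69, 11.70 and 11.71 in ESC and 12.24, 12.12 and 12.37 in EB, without overlap. It rose by 0.54 ± 0.11 (log2, SE, limma adjusted p = 0.0253). Cdc20, the activator of the anaphase-promoting complex that the checkpoint holds back, read 11.98, 12.05 and 11.80 in ESC and 12.16, 12.16 and 12.01 in EB. The highest ESC culture lay above the lowest EB culture, and the difference of 0.17 ± 0.12 was not called. Espl1 (separase) differed by 0.10 and was not called.

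Of the 6 kinases and motors of the spindle, Nek2 and Aurka were called. Nek2, which splits the linked centrosomes, read 9.33, 8.99 and 9.02 in ESC and 9.64, 9.78 and 9.84 in EB, a rise of 0.64 ± 0.13 (log2, SE, limma adjusted p = 0.0268). Aurka (Aurora A), which matures centrosomes and builds the bipolar spindle, read 9.76, 9.77 and 9.73 in ESC and 10.36, 10.16 and 10.32 in EB, a rise of 0.52 ± 0.11 (limma adjusted p = 0.0254). Neither gene's groups overlapped. Plk1, the Polo kinase that acts at centrosomes, kinetochores and the midzone, read 9.42, 9.40 and 9.48 in ESC and 9.46, 9.54 and 9.76 in EB, which overlapped (difference 0.15 ± 0.12, not called). Kif2c (a microtubule depolymerase), Tpx2 (the activator of Aurora A) and Kif11 (the motor that pushes spindle poles apart) differed by 0.25, 0.06 and -0.20, none called.

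The chromosomal passenger complex, which corrects faulty attachments and later moves to the midzone, had 1 called member. Incenp, its scaffold, rose by 0.47 (limma adjusted p = 0.0364). Aurkb (Aurora B), its kinase, read 8.36, 8.51 and 8.43 in ESC and 8.56, 8.69 and 8.42 in EB, which overlapped (difference 0.12 ± 0.12, not called). Birc5 (survivin), which helps dock the complex at centromeres, read 10.89, 10.92 and 10.90 in ESC and 10.72, 10.77 and 10.78 in EB. All EB values of Birc5 lay below all ESC values, but its difference of -0.15 ± 0.10 was not called (limma adjusted p = 0.351). Cdca8 (borealin) and Rcc2, a chromatin and centromere protein, differed by 0.26 and 0.21 and were not called.

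The 5 centromere and kinetochore genes ranged from -0.39 (Nuf2) to 0.31 (Cenpa). Cenpa, the histone H3 variant that marks centromeres, read 10.14, 10.22 and 10.32 in ESC and 10.55, 10.52 and 10.53 in EB. The groups did not overlap, and the difference of 0.31 ± 0.10 was not called (limma adjusted p = 0.0976). Ndc80, the microtubule-binding subunit of the outer kinetochore, read 7.97, 7.93 and 8.28 in ESC and 8.03, 8.18 and 8.23 in EB, which overlapped (difference 0.09 ± 0.14, not called). Cenpf, a large coat protein of the kinetochore, differed by -0.38 ± 0.13 (limma adjusted p = 0.0999), and Cenpe, a kinetochore motor, by -0.06.

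Of the 6 central spindle and cytokinesis genes, 3 rose and 1 fell. Kif23 (MKLP1), the motor of the centralspindlin complex, read 8.39, 8.52 and 8.05 in ESC and 9.12, 9.12 and 9.002 in EB, a rise of 0.76 ± 0.15 (log2, SE, limma adjusted p = 0.0215). Prc1, which bundles the antiparallel microtubules of the midzone, read 8.87, 9.13 and 8.94 in ESC and 9.64, 9.77 and 9.74 in EB, a rise of 0.73 ± 0.12 (limma adjusted p = 0.0114). Kif20a (MKLP2), which carries the passenger complex to the midzone, rose by 0.51 (limma adjusted p = 0.0276). Anln (anillin), the scaffold of the contractile ring, read 10.19, 10.14 and 10.16 in ESC and 9.64, 9.82 and 9.44 in EB. Every EB culture lay below every ESC culture, and Anln fell by 0.53 on the log2 scale (SE 0.13, limma adjusted p = 0.0381). Ect2, the exchange factor that activates RhoA at the division plane, and Racgap1, the other centralspindlin subunit, differed by -0.06 and 0.20 and were not called.

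Top2a was the only called gene of the 6 in its group. It encodes the topoisomerase that untangles sister chromatids, and read 10.97, 10.73 and 11.04 in ESC and 11.53, 11.52 and 11.64 in EB, without overlap (rise of 0.65 ± 0.12, log2, SE, limma adjusted p = 0.0207). The condensin subunits Smc2, Smc4, Ncapd2, Ncapg and Ncaph ranged from -0.42 (Smc4) to 0.15 (Ncapd2), none called.

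**Figure D2:**
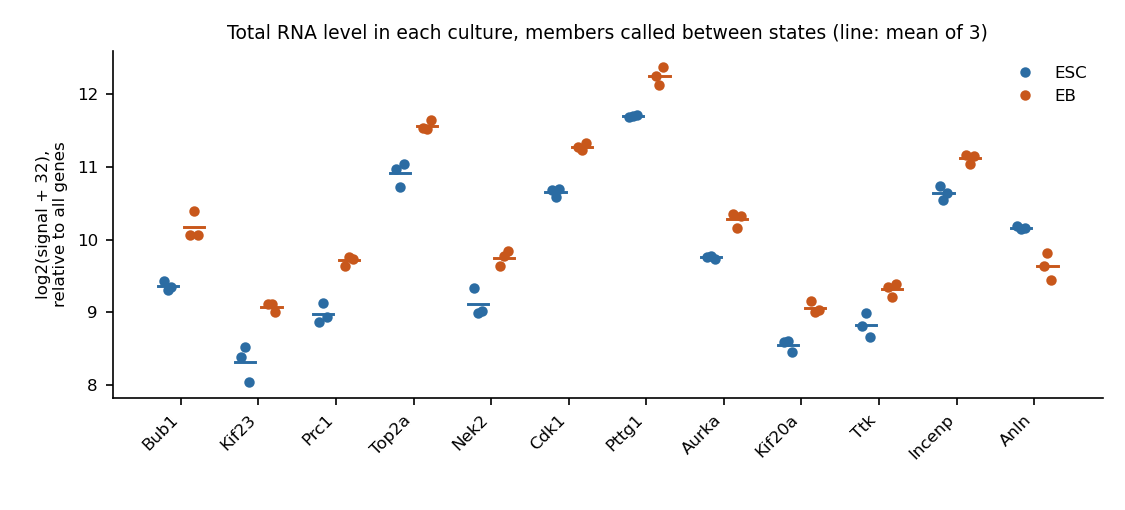
Level of the 12 called members in each culture in total RNA, as log2(signal + 32) relative to all genes (vertical axis); points are cultures, lines the mean of 3. The 3 EB points lie above the 3 ESC points for 11 genes and below them for Anln, and the widest spread within a state is that of Kif23 in ESC (SD 0.25).

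The calls in total RNA rest on few cultures. Without 1 ESC culture 6, 6 or 5 members were called higher (without replicate 1, 2 or 3) and without 1 EB culture 2, 2 or 3, and Anln was called in none of these fits. With the median over a gene's probe sets in place of its brightest one, Ttk and Nek2 turned to -0.066 and -0.058, Bub1 and Top2a fell short of the threshold at 0.29 and 0.26, and 6 members were called higher.

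Of 106 other genes of mitosis tested in total RNA, 13 were called higher and 3 lower, and their median was 0.07. Spc25, a subunit of the Ndc80 complex, had the largest called rise (0.84) and Mki67, the proliferation marker Ki-67, the largest called fall (-0.48). Among 26 DNA replication genes 2 were called higher and 1 lower (median 0.12), and among 15 G1 cyclins, kinases and inhibitors none was called higher and 2 lower (median -0.20). Whether these lists differ from the members was not tested.

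On the deposited scale, where total RNA arrays of EB were brighter throughout, all 39 members were called higher in EB, and so were 78.9% of all genes. The median member difference there was 1.41, against 0.96 over all genes. The hybridisation controls, added to the labelled RNA of every array, were also brighter in EB, at 12.19 ± 0.445 against 11.35 ± 0.278 (log2, SD, n = 3), while the mean of the spike-in controls was 9.72 and 9.71. What the deposited scale was set to is not stated, so a difference on it need not be one in the amount of mRNA. The part of array brightness and of 3' to 5' ratio in the differences was not tested.

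Within each state, the members' mRNAs lay mostly toward pools 3 and 4. The pool ratio of a gene is its mean log2 value in pools 3 and 4 minus that in pools 1 and 2 of the same culture, with the 24 pool arrays given one distribution. In ESC 22 of 39 members were called above 0 and 6 below, where 16.5% and 16.1% of all genes were, and the member median was 0.40 against -0.02. In EB 27 were called above 0 and 2 below, where 23.2% and 19.2% of all genes were, with a median of 0.64 against -0.005. By pool, the median member in ESC lay at -0.26, -0.16, 0.16 and 0.24 in pools 1 to 4 relative to its own mean over the pools. In EB it lay at -0.43, -0.24, 0.003 and 0.64. The Actb 3' to 5' log2 ratio also differed between pools within a state. Its means in pools 1 to 4 were 4.06, 4.10, 2.69 and 2.30 in ESC and 2.55, 1.66, 1.10 and 0.743 in EB. Its part in the pool ratios was not tested.

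Rcc2 and Cdc20 had the highest pool ratios in both states. The ratio of Rcc2 was 1.83, 1.65 and 1.59 in the ESC cultures and 2.19, 2.26 and 2.04 in the EB cultures. That of Cdc20 was 1.24, 1.32 and 1.25 in ESC and 1.80, 1.63 and 1.77 in EB. Both genes had higher ratios in every EB culture than in any ESC culture, with differences of 0.47 ± 0.15 and 0.46 ± 0.15 that were not called (limma adjusted p = 0.0733 and 0.0699). Cenpa and Birc5 had the lowest ratios in EB: Cenpa read -1.14, -0.69 and -0.74 there and -0.51, -0.49 and -0.59 in ESC. Birc5 read -0.87, -0.69 and -0.72 in EB and -0.21, -0.48 and -0.46 in ESC. Both lay toward pools 1 and 2 in both states (limma adjusted p = 0.00411 and 0.0172 against 0 in ESC, 9.12e-05 and 0.000133 in EB), with the highest mean in pool 2.

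Ratios of the cyclin-dependent core and of the checkpoint were mostly positive. Ccna2 was an exception in ESC, where it was called toward pools 1 and 2, a call kept in 6 of 13 alternatives. Its mean level was highest in pool 1 in both states, at 10.61 in ESC and 10.59 in EB. Cdk1 read 0.70, 0.83 and 0.99 in ESC and 0.71, 0.92 and 0.72 in EB, overlapping fully (difference -0.06 ± 0.16). Bub1b read 0.75, 0.87 and 0.85 in ESC and 0.86, 0.82 and 0.74 in EB (difference -0.02 ± 0.15). These mRNAs were called toward pools 3 and 4 in both states, and no shift between states was detected. Mad2l1 was spread widely in ESC, at -0.53, -0.15 and 0.26, and read 0.14, 0.42 and 0.34 in EB, which overlapped (difference 0.44 ± 0.20, not called).

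Among the kinases, Bub1 and Nek2 had shifts of 0.59 and 0.49 that were not called (limma adjusted p = 0.0528 and 0.0855). The ratios of Plk1 and Aurka differed less. Plk1 read 0.69, 0.70 and 0.71 in ESC and 0.79, 0.42 and 0.56 in EB (difference -0.11 ± 0.16, not called). Aurka read 0.26, 0.29 and 0.34 in ESC and 0.58, 0.71 and 0.54 in EB, with no overlap and a difference of 0.31 ± 0.15 that was not called (limma adjusted p = 0.205). Of the remaining genes followed in full, Ndc80 read 0.76, 0.78 and 0.94 in ESC and 0.63, 0.30 and 0.45 in EB (difference -0.37 ± 0.16, limma adjusted p = 0.154). Top2a read 0.71, 0.97 and 0.70 in ESC and 0.70, 0.86 and 0.70 in EB (difference -0.04 ± 0.16). The EB values of Ndc80 were all below its ESC values, and those of Top2a overlapped them. For Top2a the sign rests on the probe set: the median over its probe sets gave ratios of -0.17 in ESC and -0.81 in EB.

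The shift of the pool ratio between states was compared to ask whether these mRNAs moved along the gradient on differentiation. Relative to all genes, 5 of 39 members had a ratio called higher in EB and none called lower, where 4.18% of all genes were called higher and 5.16% lower by limma. The 3 largest falls, none called, were Cenpf (-0.41), Birc5 (-0.38) and Ndc80 (-0.37), with limma adjusted p = 0.0981, 0.146 and 0.154. Among the uncalled rises, those of Smc4 (0.96), Bub1 (0.59), Anln (0.55) and Ncapg (0.54) were larger (limma adjusted p from 0.0528 to 0.0793). On the other probe sets of Smc4 the shift was 0.04 and 0.17, and its ESC cultures spread widely in pool 4 (SD 0.88). Each of the 3 falls turned sign in only 1 of 15 alternatives. With arrays centred on their median Birc5 and Cenpf stood at 0.044 and 0.032, and for pool 4 minus pool 1 Ndc80 stood at 0.14. The median member shift was 0.31 (log2), against 0.005 over all genes.

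Aurkb had the largest called shift. Its ratio was 0.43, 0.20 and 0.59 in ESC and 1.22, 1.38 and 1.27 in EB, with a wide gap between the groups, a difference of 0.89 ± 0.16 (log2, SE, limma adjusted p = 0.00842). Its mean level in pool 4 was 8.15 in ESC and 9.50 in EB, while in pool 1 it was 7.93 and 7.90. In the plot of levels by pool, the states lie together in pools 1 and 2 and apart in pools 3 and 4.

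Kif23, the centralspindlin motor, had a ratio of 0.48, 0.16 and 0.59 in ESC and 1.13, 1.20 and 0.87 in EB, a difference of 0.66 ± 0.17 (limma adjusted p = 0.0341). It was also one of the members called higher in total RNA. Ect2 read -0.98, -0.70 and -0.31 in ESC and 0.18, -0.26 and 0.40 in EB, a difference of 0.77 ± 0.21 (limma adjusted p = 0.0412). Its ESC cultures ranged widely, and its lowest EB culture lay just above its highest ESC culture. Smc2, a core subunit of condensin, read -0.63, -0.59 and -0.46 in ESC and 0.04, -0.10 and 0.40 in EB, a difference of 0.68 ± 0.17 (limma adjusted p = 0.0290). Kif11 read -0.60, -0.68 and -0.49 in ESC and -0.10, 0.02 and 0.26 in EB, a difference of 0.65 ± 0.16 (limma adjusted p = 0.0268). Ect2, Smc2 and Kif11 were called toward pools 1 and 2 in ESC (means -0.67, -0.56 and -0.59) and lay near 0 in EB (means 0.11, 0.12 and 0.06), where none was called. With the median over probe sets, Kif11 and Smc2 were not called in ESC either (-0.19 and -0.098).

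**Figure D3:**
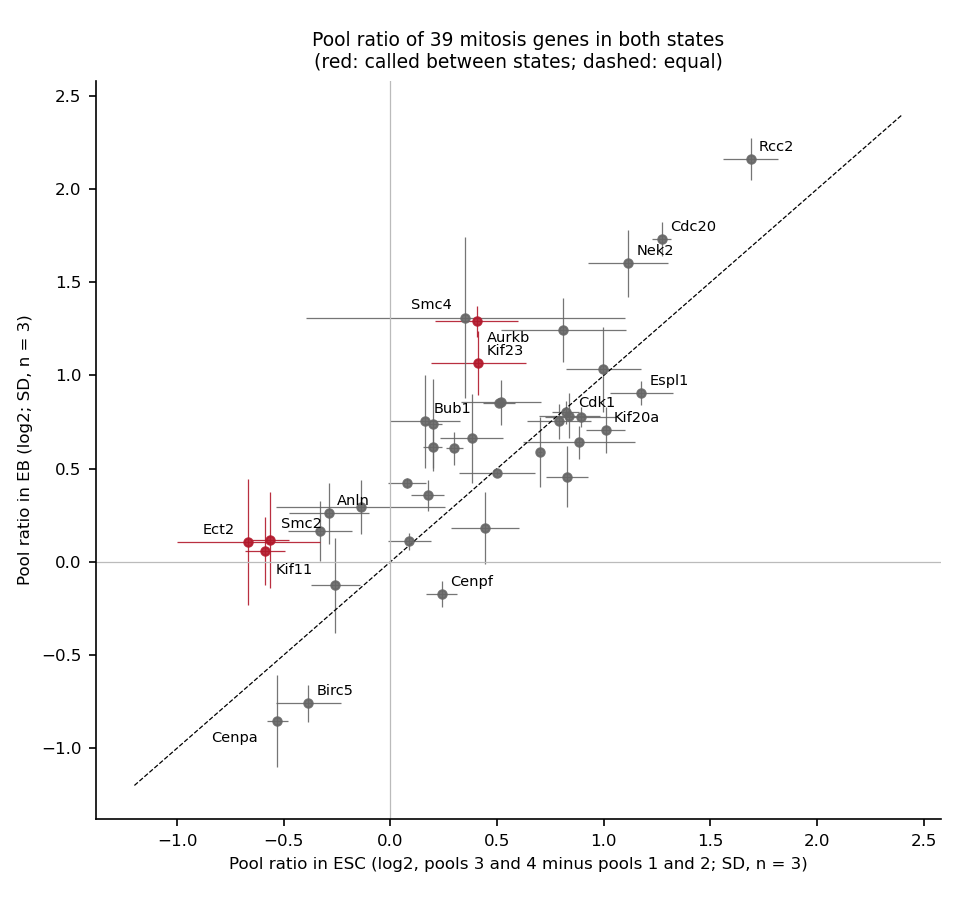
Pool ratio (log2, pools 3 and 4 minus pools 1 and 2) of 39 mitosis genes in ESC (horizontal) against EB (vertical), relative to all genes; points are means of 3 cultures, bars the SD, the dashed line equality. The 5 called genes (red) lie above the line, by 0.65 (Kif11) to 0.89 (Aurkb), and Cenpa and Birc5 lie lowest in EB.

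The count of 5 depended on single cultures and on settings. Leaving out ESC replicate 1, 2 or 3 gave 2, 0 or 3 members called higher, leaving out EB replicate 1, 2 or 3 gave 1, 3 or 2, and Aurkb was called in 5 of these 6 fits (limma adjusted p = 0.0502 without ESC replicate 2). With the median over probe sets the shift of Smc2 was 0.01 and the median member shift 0.092, while centring each array on its median gave 22 members called higher and an offset of 16 gave 1.

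**Figure D4:**
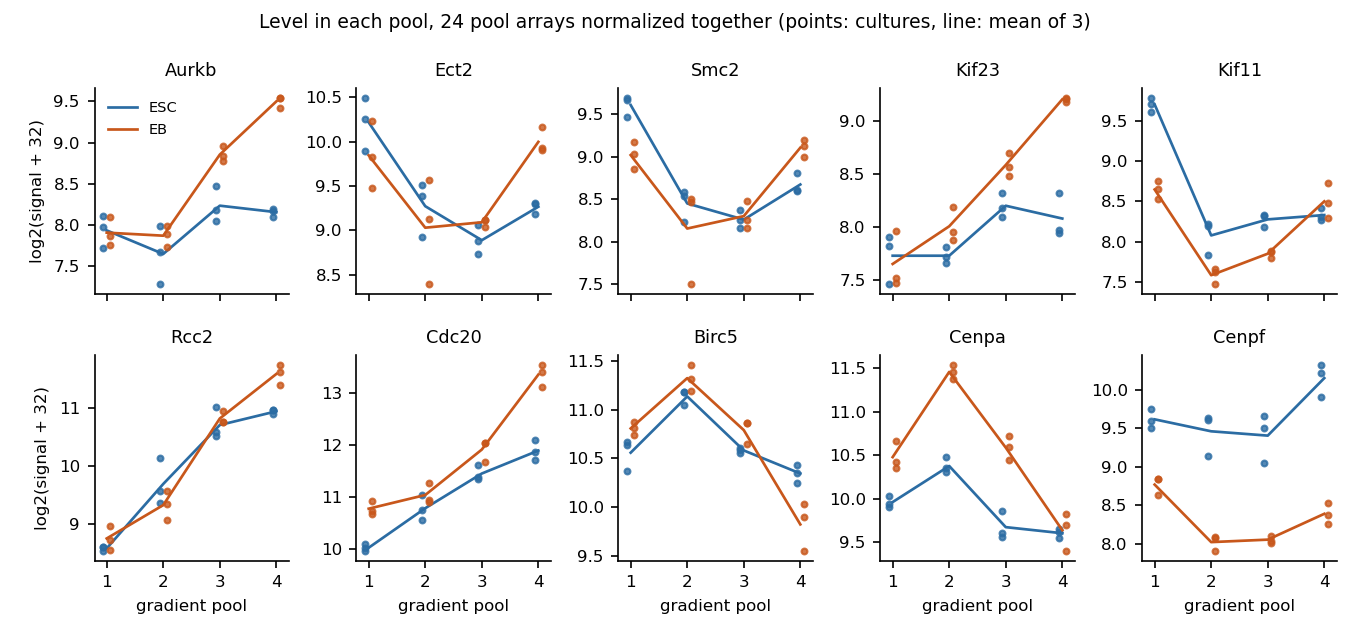
Level of 10 members in each gradient pool (horizontal axis), as log2(signal + 32) after the 24 pool arrays were given one distribution (vertical axis, own range per gene); points are cultures, lines the mean of 3 per state. Aurkb and Kif23 separate between states in pool 4, Cenpa and Birc5 peak in pool 2 in both states, and Cenpf, on its brightest probe set, is lower in EB in every pool.

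On the deposited scale all 39 members had a ratio called higher in EB, as had 64.5% of all genes, with a median of 1.395 against 0.73. In that fit limma gave every gene the same SE, 0.237, so its p-values take no account of how far a gene's own cultures differ. Among the 106 other mitosis genes, relative to all genes, 8 shifts were called higher and 3 lower (median 0.16). Esco2, which acetylates cohesin, had the largest called rise (1.01), and Anapc13, a small subunit of the anaphase-promoting complex, the largest called fall (-1.14).

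Each pool was then compared between states by itself, relative to all genes within that pool. These comparisons share no arrays with each other or with total RNA, but the arrays come from the same 3 cultures per state. The members stood highest in pool 4, where 21 of 39 were called higher in EB and 4 lower, against 15.4% and 14.6% of all genes, and the median was 0.45 against -0.001. In pool 1, 9 were called higher and 4 lower (6.25% and 6.53% of all genes), in pool 2, 4 and 1 (3.35% and 3.78%), and in pool 3, 9 and 6 (11.7% and 11.3%). The member medians in pools 1, 2 and 3 were -0.01, -0.09 and 0.11.

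**Figure D5:**
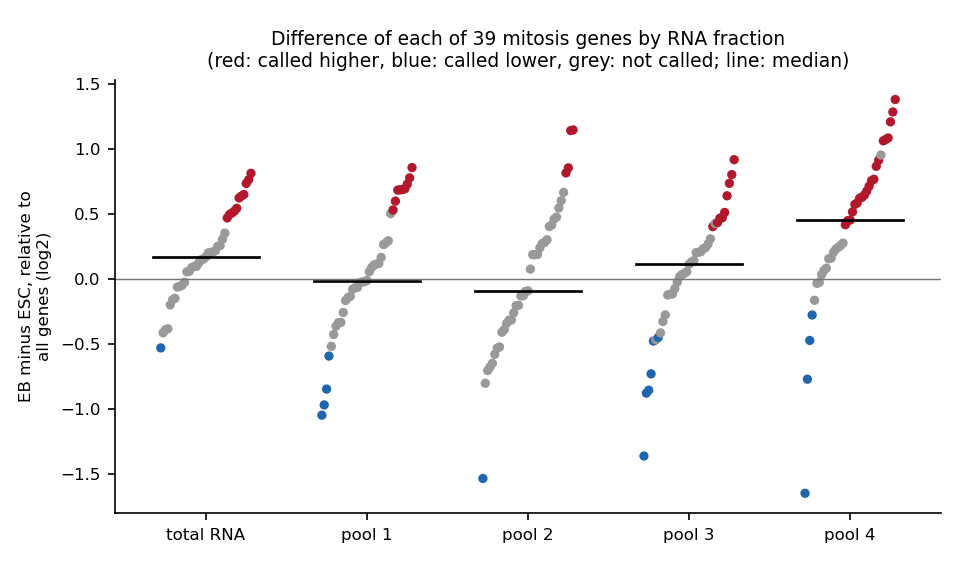
Difference between EB and ESC (log2, relative to all genes of the same arrays, vertical axis) for each of 39 mitosis genes in total RNA and in each gradient pool, ordered by size; the line is the median. The median is 0.17 in total RNA and 0.45 in pool 4, and the lowest point in pools 2, 3 and 4 is Cenpf.

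In pool 4 the genes called higher included all 3 measured members of the Cdk1 and cyclin group, 5 of the 6 spindle kinases and motors and 4 of the 6 cytokinesis genes. Of the checkpoint genes only Bub1 and Ttk were called higher, and at anaphase onset only Cdc20. Aurkb, Cdca8 and Rcc2 were called in their group, and Smc2, Ncaph and Top2a in theirs. No centromere and kinetochore gene was called higher, and Cenpe and Cenpf were called lower. Bub1 had the largest rise on its brightest probe set, reading 8.80, 9.05 and 8.95 in ESC and 10.26, 10.47 and 10.21 in EB (1.38 ± 0.11, log2, SE, limma adjusted p = 0.000121). With the median over probe sets its rise was 0.47 (limma adjusted p = 0.00711), smaller than that of Aurkb (1.17) or Aurka (1.18) in the same fit. Aurkb, not called in total RNA, read 8.17, 8.14 and 8.07 in ESC and 9.34, 9.45 and 9.44 in EB (1.28 ± 0.09, limma adjusted p = 6.5e-05). Aurka read 9.32, 9.42 and 9.51 in ESC and 10.54, 10.60 and 10.73 in EB (1.21 ± 0.10, limma adjusted p = 0.000137). The gap between states was many times the spread among cultures for each of these kinases.

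Cdc20, also not called in total RNA, read 11.44, 11.80 and 11.58 in pool 4 of ESC and 12.82, 12.70 and 12.51 in that of EB, a rise of 1.07 ± 0.13 (limma adjusted p = 0.00053). Plk1 read 9.32, 9.40 and 9.20 in ESC and 10.22, 10.09 and 10.21 in EB, a rise of 0.87 ± 0.10 (limma adjusted p = 0.000429). Cdk1 read 10.34, 10.36 and 10.43 in ESC and 11.05, 11.14 and 11.19 in EB, a rise of 0.76 ± 0.09 (limma adjusted p = 0.000536). None of these 3 genes overlapped between states. The other called rises ran from 0.42 (Smc2) to 1.08 (Kif23) and included Kif20a (1.06), Prc1 (0.91), Ccnb2 (0.77) and Kif2c (0.71). With the median over probe sets, Ttk, Tpx2, Smc2 and Top2a were no longer called in pool 4 (-0.072, 0.064, 0.24 and -0.039).

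On its brightest probe set, Cenpf went the other way in every pool. In pool 4 it read 10.17, 10.06 and 9.80 in ESC and 8.49, 8.35 and 8.23 in EB, and fell by 1.65 on the log2 scale (SE 0.12, limma adjusted p = 9.0e-05). In pools 1, 2 and 3 it fell by 0.85, 1.54 and 1.36 (limma adjusted p = 0.00653, 0.00589 and 0.000496). Its difference in total RNA, -0.38, was smaller than in any pool and was not called. Cenpe, the kinetochore motor, fell by 0.77 in pool 4 and by 0.88 in pool 3 (limma adjusted p = 0.00086 and 0.00133) and was not called in total RNA. With the median over probe sets, every one of these calls was lost: Cenpf stood at -0.050, -0.60, -0.54 and -0.66 in pools 1 to 4 (limma adjusted p = 0.85, 0.19, 0.159 and 0.252), and Cenpe at -0.44 and -0.495 in pools 3 and 4 (limma adjusted p = 0.129 and 0.19). The other probe sets of Cenpf were dim, with mean log2 values of 6.44 and 6.30 against 9.18 for the one followed. That of Cenpe averaged 6.62 against 7.66. Each lay at its array's lowest value in 1 to 4 of 24 pool arrays, and the part of this dimness in the lost calls was not tested. Birc5 and Anln fell by 0.47 and 0.28 in pool 4 (limma adjusted p = 0.0233 and 0.0469), and with arrays centred on their median Anln stood at 0.008 there.

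Cenpa was called higher in pools 1, 2 and 3 and not in pool 4. In pool 2 it read 10.91, 10.96 and 11.11 in ESC and 12.14, 12.06 and 12.21 in EB, a rise of 1.14 ± 0.18 (limma adjusted p = 0.0102). Its rises in pools 1 and 3 were 0.53 and 0.92 (limma adjusted p = 0.0284 and 0.00166), and in pool 4 the difference was 0.03. The pool 1 call of Cenpa was kept in 5 of 14 alternatives. Aurka and Cdk1 were called higher in pools 1 to 4, by 0.69, 0.82, 0.74 and 1.21 for Aurka and by 0.68, 0.85, 0.51 and 0.76 for Cdk1. Their pool 2 calls lay close to the threshold (limma adjusted p = 0.0493 and 0.0364) and were kept in 2 of 14 alternatives for Aurka (limma adjusted p from 0.00656 to 0.174) and 4 of 14 for Cdk1 (0.00282 to 0.15).

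In pool 1 the members called lower were Kif11 (-1.05), Anln (-0.97), Cenpf (-0.85) and Smc2 (-0.59). Kif11 read 8.78, 8.69 and 8.87 in pool 1 of ESC and 7.84, 7.73 and 7.62 in that of EB, far apart (limma adjusted p = 0.00337). Smc2 reversed to 0.16 there with the median over its probe sets. In pool 3, Bub1b, which did not differ in total RNA or in pool 4 (-0.03), fell by 0.86 (limma adjusted p = 0.00576), and Espl1 and Ndc80 fell by 0.73 and 0.48 (limma adjusted p = 0.00263 and 0.0169).

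In pool 4, 20 to 22 members were called higher when any 1 culture was left out. The 4 called lower there became 2 without ESC replicate 1 or 2 or without EB replicate 1 or 3, as Birc5 and Anln lost their calls. In pool 1 the 9 called higher became 4, 4 or 5 without ESC replicate 1, 2 or 3 and 5 without EB replicate 2. In pool 2 the 4 called higher became 0 without ESC replicate 1 and 1 without ESC replicate 2 or 3 or EB replicate 1 or 2. Without EB replicate 3, the array that stood apart, 3 were called higher in pool 2 and 3 lower. In pool 3 the 9 called higher became 5, 3 or 5 without EB replicate 1, 2 or 3 and 6 without ESC replicate 1 or 2.

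The Actb 3' to 5' log2 ratio differed between states in the pools as well. It was 4.06 ± 0.177 in ESC and 2.55 ± 0.633 in EB in pool 1, and 2.30 ± 1.13 and 0.743 ± 0.275 in pool 4 (SD, n = 3). Mean linear signal in pools 1 to 4 was 130 ± 87.7, 275 ± 75.2, 161 ± 49.4 and 99.8 ± 14.4 in ESC. In EB it was 130 ± 29.2, 394 ± 133, 400 ± 166 and 236 ± 20.1 (SD, n = 3). In pool 4, 49.6% to 59.0% of probe sets lay at their array's lowest value in ESC and 28.01% to 36.08% in EB. The probe sets followed for the 39 members lay at it in no pool array. The part of the Actb ratio and of array brightness in the member differences and pool ratios was not tested. On the deposited scale 38 of 39 members were called higher in pool 4, as were 75.4% of all genes, and Cenpf, at -0.38, was the exception.

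Beside the members in pool 4, 32 of the 106 other mitosis genes were called higher and 10 lower (median 0.15), led by Nusap1, a spindle protein (1.20), and at the low end by Mki67 (-1.34). Of 26 replication genes 10 were called higher and 1 lower (median 0.14), and of 15 G1 genes 3 were called in each direction (median -0.03). Among 9 noncoding RNAs, which are not expected on ribosomes, 4 had a pool ratio called below 0 in each state. Of all genes, 16.1% in ESC and 19.2% in EB were called below 0. Neat1 was among the 4, at -1.82 in ESC and -1.71 in EB. Which end of the gradient is pool 1 was not inferred from these RNAs.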

How the data were processed

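Per the deposited table's values, arrays held log2 signals for 45101 probe sets; the submitters' processing notes name MAS5 and affy, and the scaling is not given in the sources used here. The mean over 24 spike-in probe sets lay between 9.43 and 9.78 on each array, and that over 18 hybridisation control probe sets between 9.60 and 13.9. Signals were made linear, 32 was added and log2 taken; the dimmest 40% of probe sets were dropped. Quantile normalization over the arrays of a fit gave values relative to all genes. EB were compared with ESC by limma 3.58.1 in R 4.3.3 (lmFit, eBayes, two-sided, Benjamini-Hochberg over 13250 genes, threshold 0.05); the code was tested on simulated data. Precision is limited by 3 cultures per state. The p-values rest on the spread among them, which limma moderates toward the spread of all genes. Relative to all genes, the prior degrees of freedom of this moderation were 3.11 in total RNA and 8.26 for the pool ratio. For the pool ratio on the deposited scale they were infinite. The array's own annotation named the genes, with 34945 probe sets to 1 symbol, 932 to several and 9160 to none. Of the 39 probe sets followed, 11 carry an x or s suffix, which marks probes that may match other transcripts. Those of Aurkb, Cdc20, Nek2, Pttg1 and Prc1 are among them.

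Members, lists and rule were chosen with earlier results of these data known. The rule named in full Cdk1, Plk1, Aurka, Aurkb, Bub1b, Mad2l1, Cdc20, Cenpa, Ndc80, Birc5 and Top2a (and Ccnb1, which had no probe set), up to 8 called members per direction in total RNA and in the pool ratio, and the 2 highest and 2 lowest ratios per state; genes named in single pools, Kif20a, Ttk and Incenp were chosen after their values were seen. Alternatives were offsets of 16 and 64, no filter, the median over probe sets, a trended prior, a replicate block, array centring or scaling, pool 4 minus pool 1, and each culture left out; for single pools and within states they were chosen after seeing the data.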

Additional observations from a re-analysis of the deposited data

Results flagged for a closer look

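The change of pool ratio between states, which is an interaction of state and pool, passed the threshold for 5 members (limma, Benjamini-Hochberg over all genes). The ratio was higher in EB than in ESC by 0.89 for Aurkb, 0.77 for Ect2, 0.68 for Smc2, 0.66 for Kif23 and 0.65 for Kif11 (log2). Over all genes 9.34% passed in either direction.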

How the results depend on the processing

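In total RNA, relative to all genes, the 11 members called higher became 6 with the median over probe sets and 2 to 6 without 1 culture. The 1 called lower became 0 with an offset of 16, no filter, probe-set medians, arrays scaled to one mean, or 1 culture left out, and 2 with a trended prior. The median of 0.17 became 0.33 with arrays centred and 0.32 with arrays scaled. For the pool ratio, the 5 called higher became 1 with an offset of 16, 14 with 64, 22 centred, 16 scaled, 11 for pool 4 minus pool 1, and 0 to 3 without 1 culture. The 0 called lower became 1 with an offset of 64 or probe-set medians and 2 for pool 4 minus pool 1. The median shift of 0.31 became 0.092 with probe-set medians, 0.59 centred, 0.48 scaled and 0.47 for pool 4 minus pool 1, and on the deposited scale 1.395 became 1.11 with probe-set medians and 1.66 for pool 4 minus pool 1. Within states, the 6 called below 0 in ESC became 1 when scaled, and the 2 in EB became 4 with probe-set medians and 1 when scaled. In pool 1 the 9 higher became 1 centred, 2 scaled and 4 to 6 without 1 culture, and the 4 lower became 2 with probe-set medians. In pool 2 the 4 higher became 2 with an offset of 16, centred or scaled, 7 with a trended prior and 0 to 3 without 1 culture; the 1 lower became 4 with an offset of 64 or a trended prior, 2 with no filter and 1 to 3 without 1 culture. In pool 3 the 9 higher became 3 to 8 without 1 culture. In pool 4 the 4 lower became 1 with probe-set medians, 2 centred and 2 to 3 without 1 culture. The causes of these changes were not tested, except that fits without 1 culture hold fewer samples.

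Single calls turned direction with probe-set medians: Ttk (-0.066) and Nek2 (-0.058) in total RNA, Bub3 within ESC (-0.34) and EB (-0.35), Top2a within ESC (-0.17) and EB (-0.81), Ttk within EB (-0.10), Smc2 in pool 1 (0.16), and Ttk (-0.072) and Top2a (-0.039) in pool 4; Anln in pool 4 turned to 0.008 when arrays were centred. With several probe sets, 14 of 27 members had differences of both signs in total RNA. Some of the probe sets not followed were dim. That of Ttk had a mean log2 value of 5.74 against 8.85 and lay at its array's lowest value in 5 of 24 pool arrays. For Bub3, those at 5.80 and 5.67 lay at it in 8 and 10. The one of Top2a at 7.38 and the one of Nek2 at 7.41 lay at it in none.

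Cultures share replicate numbers between states, but relative to all genes deviations of same-numbered cultures did not all correlate above 0.1 in any fit. The correlations were 0.01 to 0.04 in total RNA and 0.02 to 0.10 for the ratio. Single ones were higher in the pools: 0.17 in pool 2 (replicate 3), 0.17 in pool 3 and 0.32 in pool 4 (both replicate 1). On the deposited scale all were above 0.1 in pools 1 and 2 (lowest 0.32 and 0.14). Pool arrays of one replicate number also shared their lowest log2 value in both states (3.8, 2.93 and 3.35 for replicates 1, 2 and 3). The main fits take no account of this. With the replicate block, members called higher were 3 in total RNA (0 lower), 8 for the pool ratio, 4 in pool 1 and 2 in pool 2; the block changed no other count of calls by over 1.5 times.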
